A study of Rattus norvegicus with 18 samples.

Results

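A set of 8 genes that clear hemoglobin and break down heme were followed in the cerebral cortex of rats after subarachnoid hemorrhage (SAH), bleeding into the fluid space around the brain. They were chosen by name, as the rows of the deposited count table whose symbols are Hmox1, Hmox2, Blvra, Blvrb, Hp, Hpx, Cd163 and Lrp1. All 8 were found among the 30735 genes of the table, 1 row each, and all 8 were among the 18444 genes that passed a filter on low counts. Their Ensembl identifiers are ENSRNOG00000014117, ENSRNOG00000003773, ENSRNOG00000011778, ENSRNOG00000024410, ENSRNOG00000014964, ENSRNOG00000018257, ENSRNOG00000010253 and ENSRNOG00000025053, in that order.

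RNA was sequenced from 18 adult Sprague Dawley rats, with 1 library per rat. The sham group (n = 6) had the neck surgery and the filament without perforation of the artery. The SAH 1d and SAH 7d groups (n = 6 each) had an artery at the base of the brain perforated from inside the vessel, and tissue was taken 1 or 7 days later. The model is a single sudden bleed whose size was not set for each rat, all groups shared the anesthesia and the surgery, the tissue was rinsed with saline to remove blood, and the sources differ on whether cortex came from the operated side or from both sides. The day on which sham tissue was taken was not stated. Comparisons with sham therefore cannot tell the bleed apart from time since the surgery. The groups carried no allele, transgene or drug. The libraries held between 27270026 and 38271014 counts.

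When red cells lyse, free hemoglobin is bound by haptoglobin (Hp) and the complex is taken up by macrophages through the receptor CD163. Heme that is set free is bound by hemopexin (Hpx) and taken up through LRP1. Inside cells, heme oxygenases open the heme ring to biliverdin, carbon monoxide and iron, and biliverdin reductases turn biliverdin into bilirubin. Hmox1 encodes the inducible heme oxygenase, which heme itself and oxidative stress switch on, and Hmox2 encodes the constitutive one, which is abundant in neurons. Free heme and iron damage cell membranes, so this route is followed closely after brain hemorrhage.

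Transcript levels set between genes are given in FPKM, fragments scaled to transcript length and to the mapped reads of the library, and tests were run on counts. A gene was called at a Benjamini-Hochberg adjusted p under 0.05 in the quasi-likelihood test of edgeR, fitted over all tested genes with 12 libraries per comparison, and a change of at least 1 on the log2 scale made it a differentially expressed gene (DEG). Of the 18444 genes, 4684 were called between sham and SAH 1d, of which 58.7% were higher at SAH 1d, and limma on FPKM put that share at 79.0% to 82.4%, with the median of all genes shifted by 0.11 (log2) at a pseudocount of 0.1. Between SAH 1d and SAH 7d 252 genes were called, and between sham and SAH 7d none was called by edgeR, against 2842 genes at an unadjusted p under 0.05, 459 genes called by DESeq2 and at most 1 by limma. SAH 7d-5 and SAH 1d-3 stood apart from their groups. Levels in CPM are counts scaled to the total of the library times its normalization factor (TMM). Macrophage markers summed to 648 CPM in SAH 1d-3, where the next SAH 1d library had 149 CPM. In SAH 7d-5 they summed to 8987 CPM, where the next SAH 7d library had 299 CPM, and neuronal markers summed to 2535 CPM in SAH 7d-5, the lowest of all libraries. The transcript of lysozyme, Lyz2, made up 71.9% of the macrophage sum in SAH 1d-3 and 88.9% of that in SAH 7d-5. Microglia markers summed to 2824 CPM in SAH 7d-5, where the next SAH 7d library had 1204 CPM. In SAH 1d-3 microglia markers summed to 342 CPM, the lowest of its group. Calls on the 8 genes that turn on these libraries are given with and without them, and so are counts over gene lists that change. Markers of neurons, astrocytes and oligodendrocytes were present in every library.

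The bases before the start are shown for the 3 genes that were called at SAH 1d and had a promoter entry. Hpx and Cd163 were higher at SAH 1d and Hmox2 was lower. The RefSeq promoter set used held entries for 6 of the 8 genes and none for Hmox1 or Hp. It had 7 entries for these genes in all because Hmox2 has a pair of starts. Its GRCr8 build is not the build of the counts. Capitals mark matches to 3 motifs searched on both strands. These are the core of the antioxidant response element bound by NRF2 (TGACNNNGC), the STAT site used by acute phase signals (TTCNNNGAA) and the GC box (GGGCGG). Each line gives the 250 bases upstream of a start, written 5′ to 3′ on the strand of the gene.
Hpx, chr1:169352156-169352405, minus strand: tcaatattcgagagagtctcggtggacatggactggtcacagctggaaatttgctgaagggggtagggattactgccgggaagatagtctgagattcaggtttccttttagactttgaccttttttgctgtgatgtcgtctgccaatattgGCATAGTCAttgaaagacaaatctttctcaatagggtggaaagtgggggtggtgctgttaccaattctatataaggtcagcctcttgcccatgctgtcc
Cd163, chr4:158770524-158770773, plus strand: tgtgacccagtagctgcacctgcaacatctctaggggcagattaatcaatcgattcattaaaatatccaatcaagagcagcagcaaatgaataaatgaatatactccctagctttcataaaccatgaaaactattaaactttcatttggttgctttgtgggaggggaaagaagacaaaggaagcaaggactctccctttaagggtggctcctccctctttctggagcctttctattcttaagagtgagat
Hmox2, chr10:11337613-11337862, minus strand: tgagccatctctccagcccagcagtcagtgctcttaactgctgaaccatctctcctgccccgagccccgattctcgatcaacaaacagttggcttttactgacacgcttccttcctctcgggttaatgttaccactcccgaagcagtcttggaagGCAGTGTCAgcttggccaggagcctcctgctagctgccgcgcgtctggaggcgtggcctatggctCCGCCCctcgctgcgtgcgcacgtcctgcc

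The Hpx window held 1 match to the antioxidant response element, on the opposite strand and 99 to 91 bases before the start. The same motif stood in the windows of Hmox2, 95 to 87 bases before the start shown, and of Blvra, 145 to 137 bases before the start, so it was present in a gene that rose, a gene that fell and a gene that was not called. Over all 33469 promoter entries, 10.1% held that motif in the same 250 bases, 7.67% held the STAT site and 30.5% held the GC box. The STAT site matched the other Hmox2 entry, and the GC box matched Blvrb, Lrp1 and the Hmox2 entry shown. Cd163 held none of the 3 in this window. Matches to different motifs did not overlap, while a pair of GC boxes in the Blvrb window shared the base 240 before the start. A match in letters is not evidence of binding.

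In the sham cortex the constitutive part of the route dominated. Median FPKM ran from Hmox2 (58.4) through Lrp1 (24.3), Blvra (17.0) and Blvrb (14.2) to Hmox1 (3.56), and then to the secreted binders and the macrophage receptor, Hp (0.54), Cd163 (0.48) and Hpx (0.071). The ranges of the 6 sham libraries overlapped for Blvra (12.8 to 19.4) and Blvrb (11.9 to 17.0), and for Hp (0.27 to 0.75) and Cd163 (0.34 to 0.89). At SAH 1d the order changed at its top, where Hmox1 had a median of 50.2 FPKM and Hmox2 one of 47.0, with overlapping ranges. It also changed at its bottom, to Cd163 (1.41), Hpx (1.02) and Hp (0.70). At SAH 7d the medians were again led by Hmox2 (54.0), Lrp1 (25.2), Blvra (20.9) and Blvrb (15.5), and Hmox1 was at 6.77. Below it were Cd163 (0.96), Hp (0.63) and Hpx (0.057). In bulk tissue, a change in the number of cells of a type and a change in RNA per cell cannot be told apart.

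**Figure D1:**
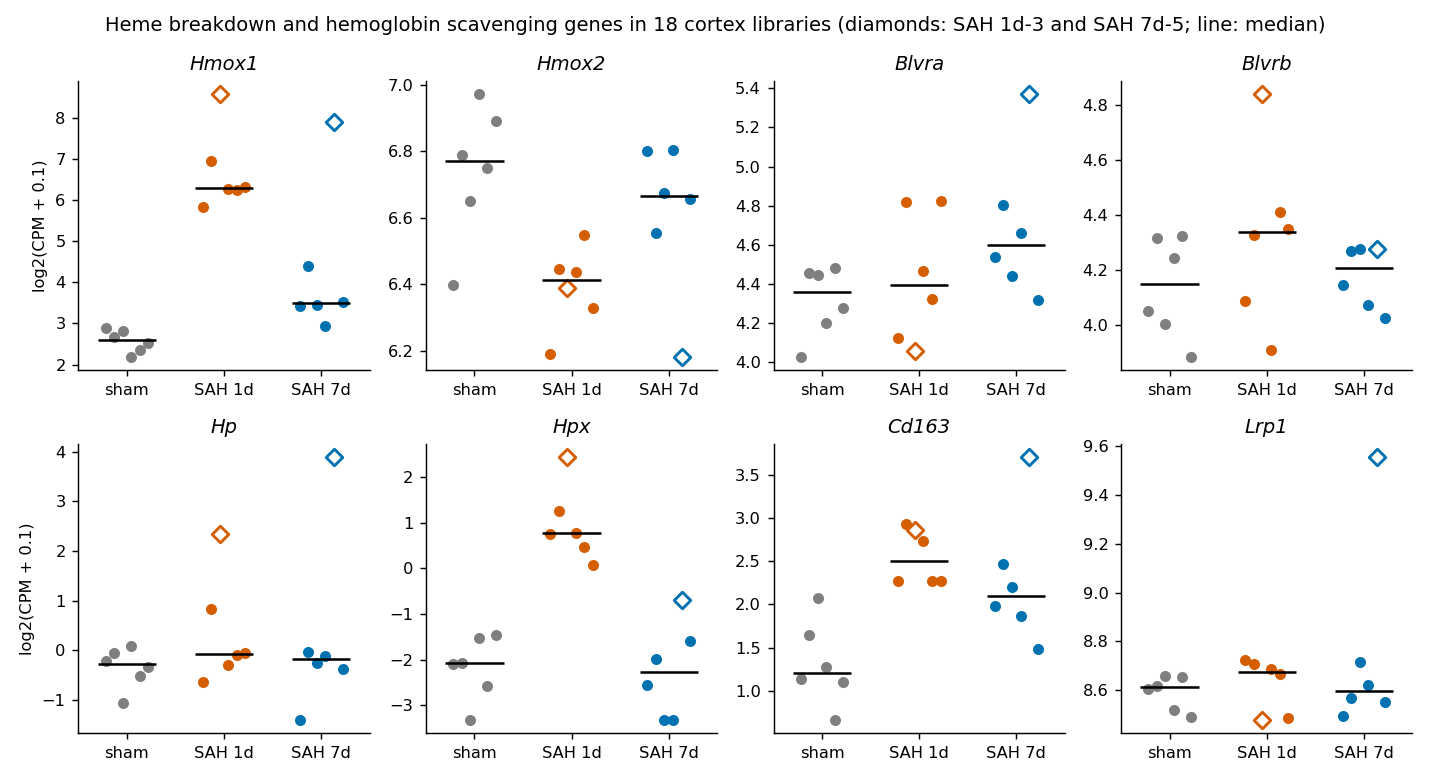
Level of each gene on a log2(CPM + 0.1) scale in the 18 libraries, with 1 point per rat, grouped as sham, SAH 1d and SAH 7d; lines are medians of 6, and diamonds are SAH 7d-5 and SAH 1d-3. Hmox1, Hpx and Cd163 were above sham in all 6 SAH 1d libraries, Hpx was back in the sham range in all but 1 SAH 7d library, and SAH 7d-5 was the highest SAH 7d library for Hmox1, Blvra, Blvrb, Hp, Hpx, Cd163 and Lrp1.

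The comparison of SAH 1d with sham asks which steps of the route had changed 1 day after the bleed. Hmox1, Hpx and Cd163 rose and Hmox2 fell, while Blvra, Blvrb, Hp and Lrp1 were not called. That is 3 of 8 genes higher, against 14.9% of all tested genes, and 1 of 8 lower, against 10.5%. For 3 of 8 genes every SAH 1d library was above every sham library, which was so for 7.88% of all tested genes. Hpx is counted here although it passed the filter on low counts through its SAH 1d libraries, the higher group. Nothing is therefore read from the counts of genes higher or not overlapping upward. Without SAH 1d-3 the same 4 genes were called in the same directions, and 15.4% of all genes were called higher, 13% were called lower and 9.08% did not overlap upward.

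Hmox1 showed the largest change of the 8 genes. It lay between 2.67 and 4.09 FPKM in sham (median 3.56) and between 37.2 and 239 FPKM at SAH 1d (median 50.2). All SAH 1d rats were above all sham rats, and SAH 1d-3, at 239 FPKM, was far above the next at 81.3 FPKM. The log2 fold change was 4.48 (SE 0.47, edgeR adjusted p = 6.48e-05), a 22.3-fold rise. Without SAH 1d-3 it was 3.79 (SE 0.19, edgeR adjusted p = 1.26e-07), or 13.9-fold, so 1 library moved the fold by more than 1.5 times. Of 9 macrophage markers tested, edgeR called 5 higher (Lyz2, Cd68, Cd14, F13a1 and Siglec1) and did not call 4 (Ms4a7, Mrc1, Lyve1 and Pf4). DESeq2 called 3 and limma 4. The markers summed to 59.5 to 107 CPM in sham and 106 to 648 CPM at SAH 1d. The 648 CPM belonged to SAH 1d-3, and the next SAH 1d library had 149 CPM. The part of macrophages in the Hmox1 change was not tested.

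Red cell transcripts were not called beside Hmox1. Of 6 tested red cell genes, which include the globins Hba-a2 and Hbb, none was called by edgeR between SAH 1d and sham, 0 had an unadjusted p under 0.05, and 0 were called by DESeq2 or limma. Their median log2 fold change was 0.66, against 0.0086 over all genes. Without SAH 1d-3 it was 0.36, against -0.0018. Sums of the red cell list ran from 13.4 to 110 CPM in sham (median 43.6) and from 52.0 to 189 CPM at SAH 1d (median 82.4). The sum was lowest of all libraries, at 1.69 CPM, in SAH 7d-5. That library had the second highest Hmox1 level of all 18, at 149 FPKM. The part of red cells in the Hmox1 level was not tested.

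Hmox2 moved the other way by a small amount. Its levels were 41.2 to 65.7 FPKM in sham (median 58.4) and 41.4 to 51.0 FPKM at SAH 1d (median 47.0), so the groups overlapped. On FPKM the lowest sham library was at the bottom of both ranges. In CPM the groups overlapped too, at 84.2 to 125 in sham and 73.0 to 93.5 at SAH 1d. On counts, the log2 fold change was -0.36 (SE 0.10, edgeR adjusted p = 0.0161), and it was -0.36 without SAH 1d-3 as well. The call was lost on the FPKM scale, where limma gave an adjusted p of 0.107 to 0.153. In these limma fits the median log2 fold change of all genes was 0.036 to 0.11. Neuronal markers fell in the same comparison, with 8 of 8 called lower by edgeR, 8 called by DESeq2 and 3 or 4 called by limma on FPKM, a median log2 fold change of -0.62 against 0.0086 over all genes, and sums of 6812 to 10601 CPM in sham and 5174 to 6586 CPM at SAH 1d. Their part in the Hmox2 difference was not tested.

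The balance of the heme oxygenases shifted. Hmox1 made up 3.91% to 8.96% of the summed FPKM of Hmox1 and Hmox2 in sham (median 5.62%) and 47.3% to 83.9% at SAH 1d (median 51.7%). The mean rose by 51.3 percentage points, from 6.08% ± 1.83 (SD, n = 6) to 57.4% ± 14.0 (SD, n = 6; two-sided exact permutation p = 0.00216, the smallest that 6 against 6 can give, adjusted p = 0.0130 over 6 share tests). Without SAH 1d-3 the difference was 46.0 points. Among the biliverdin reductases the share of Blvrb, with a mean of 46.3% in sham and 47.4% at SAH 1d, did not pass the test (exact permutation p = 0.820, adjusted p = 0.820).

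**Figure D2:**
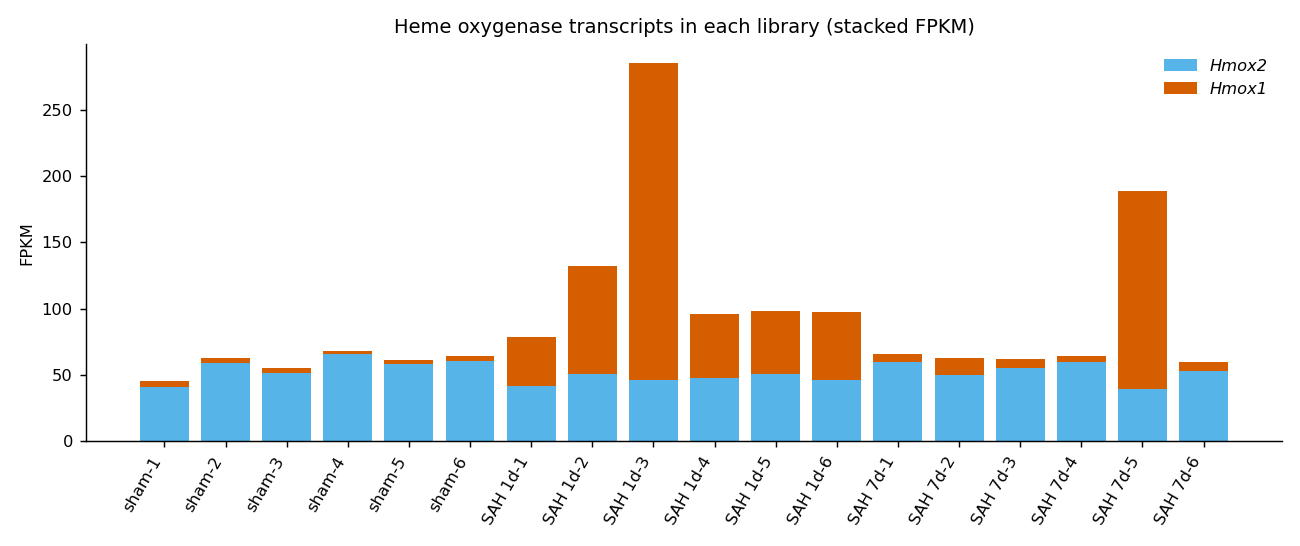
Stacked FPKM of Hmox2 (blue) and Hmox1 (orange) in each of the 18 libraries, 1 bar per rat. Hmox2 lay between 39.6 and 65.7 FPKM in all libraries, and Hmox1 passed 37 FPKM in all 6 SAH 1d libraries and in SAH 7d-5.

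The secreted binders differed from each other. Hpx, the heme binder, was barely present in sham, with 0 to 8 counts per library (0 to 0.15 FPKM, median 0.071). At SAH 1d it had 31 to 211 counts per library (0.62 to 3.36 FPKM, median 1.02), and all SAH 1d rats were above all sham rats. Its log2 fold change was 3.89 (SE 0.58, edgeR adjusted p = 0.000697). Without SAH 1d-3 it was 3.39 (SE 0.47, edgeR adjusted p = 0.000233). The level stayed low per length even at its highest, and low counts make the fold depend on the scale, being 1.06 on log2(FPKM + 1). Choroid plexus markers, with 4 of 6 called higher at SAH 1d, 6 of 6 without SAH 1d-3 and 2 called by limma on FPKM, summed to 755 CPM in SAH 1d-4 and 1088 CPM in SAH 1d-6, where Hpx was at 1.00 and 0.62 FPKM, the latter its lowest SAH 1d level. Whether choroid plexus cells had a part in the Hpx level was not tested.

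Hp, the hemoglobin binder, had 10 to 31 counts per library in sham (0.27 to 0.75 FPKM, median 0.54). At SAH 1d it had 18 to 197 counts (0.46 to 4.16 FPKM, median 0.70), with 5 of the libraries at 1.45 FPKM or less. The groups overlapped, and the log2 fold change of 1.19 (SE 0.52, edgeR adjusted p = 0.109) did not pass the test. Without SAH 1d-3 it was 0.38 (SE 0.32, edgeR adjusted p = 0.417). Neutrophil markers, which belong to the cells known to store haptoglobin in their granules, summed to 50.6 CPM in SAH 1d-3, of which S100a9 gave 30.5 CPM, the next SAH 1d library having 6.41 CPM in all. Their part in the Hp level was not tested.

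The receptors also differed. Cd163, the macrophage receptor for the haptoglobin complex, lay between 0.34 and 0.89 FPKM in sham (median 0.48) and between 1.09 and 2.0 FPKM at SAH 1d (median 1.41). The groups did not overlap, and SAH 1d-3 was not the highest. On the log2 scale the rise was 1.23 (SE 0.24, edgeR adjusted p = 0.00317), and 1.17 without SAH 1d-3. Of the 9 macrophage markers tested, the 5 called higher beside Hmox1 rose by 0.70 (F13a1) to 4.59 (Cd14) on the log2 scale, and the 4 that did not pass the test were Ms4a7 (log2 fold change 1.15), Mrc1 (0.17), Lyve1 (-0.060) and Pf4 (-0.067). Lrp1, the receptor for the hemopexin complex, lay between 22.5 and 26.5 FPKM in sham and between 24.0 and 29.6 FPKM at SAH 1d. Its log2 fold change was 0.038 (SE 0.067, edgeR adjusted p = 0.712).

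The biliverdin reductases did not pass the test. Blvra, the main reductase of the adult, had a median of 17.0 FPKM in sham and 18.7 FPKM at SAH 1d, with a log2 fold change of 0.15 (SE 0.15, edgeR adjusted p = 0.485). Blvrb, which also reduces flavins, had medians of 14.2 and 18.3 FPKM, with a log2 fold change of 0.21 (SE 0.15, edgeR adjusted p = 0.317). For Blvrb SAH 1d-3 was the highest library (24.8 FPKM), and for Blvra it was the lowest of its group (14.7 FPKM).

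The comparison of SAH 7d with SAH 1d asks what had changed back. Hpx fell and the other 7 genes were not called, which is 1 of 8 lower, against 1.08% of all tested genes, and none higher, against 0.282%. Hpx passed the filter on low counts through its SAH 1d libraries, the higher group here, so nothing is read from that count. Hpx was back at 0 to 17 counts per library (0 to 0.30 FPKM, median 0.057) at SAH 7d, and every SAH 7d library was below every SAH 1d library, as for 2.11% of all tested genes. The log2 fold change was -3.70 (SE 0.78, edgeR adjusted p = 0.0381). That call rested on the full set of libraries. Leaving out any 1 library other than SAH 7d-5 gave an edgeR adjusted p between 0.0501 and 0.108, with a log2 fold change between -3.86 and -3.20, and with no filter on counts edgeR gave 0.0504. DESeq2 gave an adjusted p of 6.00e-05.

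Whether Hmox1 passed the test depended on the libraries that stood apart. At SAH 7d it lay between 4.61 and 149 FPKM (median 6.77), with SAH 7d-5 at 149 FPKM and the next at 12.9 FPKM. Over all libraries the log2 fold change was -1.38 (SE 0.91, edgeR adjusted p = 0.517). Without SAH 7d-5 and SAH 1d-3 it was -2.74 (SE 0.27, edgeR adjusted p = 0.000165), every SAH 7d library was below every SAH 1d library, and the fall was 6.70-fold. Without SAH 7d-5 alone it was -3.43 (edgeR adjusted p = 0.00420), and without SAH 1d-3 alone it was -0.70 (edgeR adjusted p = 0.773). With all libraries, limma on FPKM gave -2.36 to -2.48 (adjusted p = 0.113 to 0.184) and edgeR with the replicate number as a block gave -2.62 (adjusted p = 0.298), while DESeq2 gave no adjusted p for Hmox1 or Hp.

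Without SAH 7d-5 and SAH 1d-3, 3 of the 8 genes were called. Hmox1 and Hpx (-4.02, SE 0.61, edgeR adjusted p = 0.002) were lower, against 7.49% of all tested genes, and Hmox2 was higher by 0.30 (SE 0.077, edgeR adjusted p = 0.0232), against 6.13%, with the same limit on the count of Hpx. Groups did not overlap for Hmox1 and Hpx downward, against 6.67% of all genes, and for Hmox2 upward, against 5.07%. The 5 remaining Hmox2 levels at SAH 7d ran from 50.3 to 59.6 FPKM. The Hmox1 share of heme oxygenase FPKM fell by 34.3 points from SAH 1d to SAH 7d (exact permutation p = 0.0195, adjusted p = 0.0390), and the difference was -40.1 points without these libraries (adjusted p = 0.0238 by the same exact permutation test). With all libraries that call was lost when any 1 library other than SAH 7d-5 was left out, with adjusted p up to 0.0779 and the difference still at -29.0 points or below.

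Cd163 was not called between the times. It lay between 0.60 and 3.47 FPKM at SAH 7d (median 0.96), SAH 7d-5 being the highest. The log2 fold change against SAH 1d was -0.10 (SE 0.35, edgeR adjusted p = 0.927), and -0.50 (SE 0.21, edgeR adjusted p = 0.139) without SAH 7d-5 and SAH 1d-3. Hp (0.93, SE 0.97, edgeR adjusted p = 0.705) turned to -0.45 without these libraries, and Lrp1 turned from 0.18 to -0.069.

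**Figure D3:**
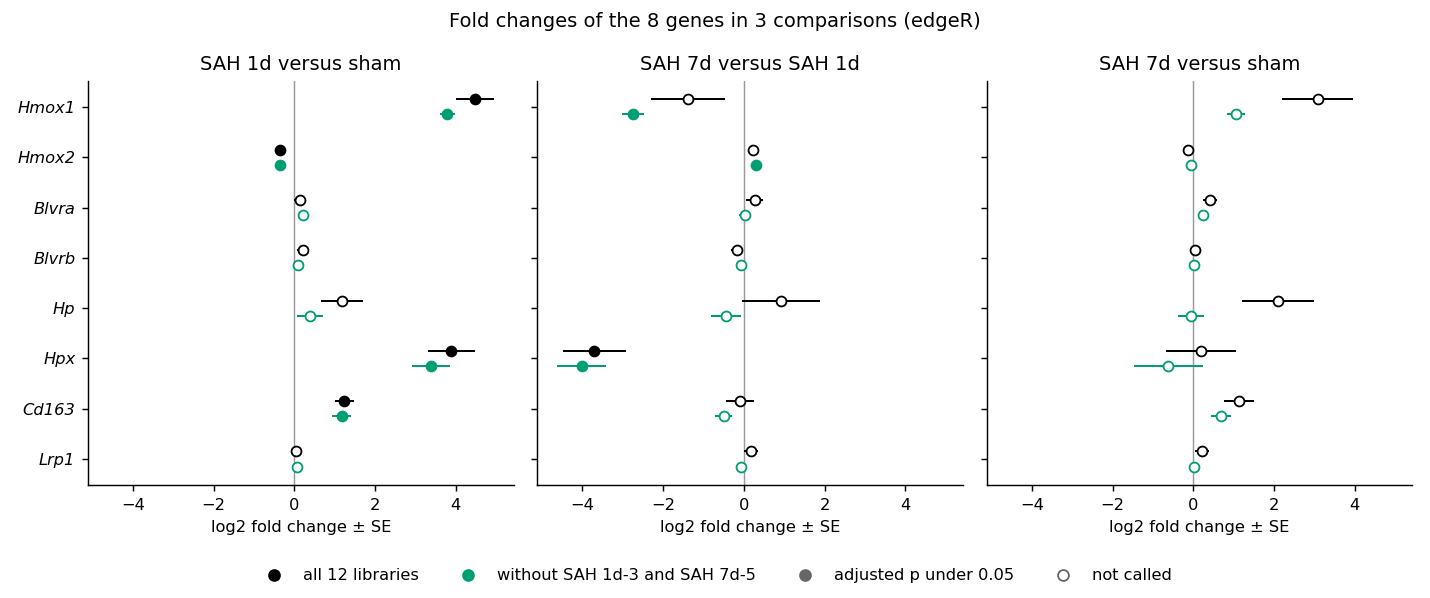
Log2 fold change of each gene with its standard error in the 3 comparisons, with all 12 libraries (black) and without SAH 7d-5 and SAH 1d-3 (green); filled points have an edgeR adjusted p under 0.05. At SAH 1d the same 4 genes were filled in either fit, while at SAH 7d against SAH 1d Hmox1 and Hmox2 were filled without the libraries that stood apart.

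The comparison of SAH 7d with sham asks what was left after a week. No member was called in either direction, and neither was any of the tested genes (0% higher and 0% lower by edgeR, also without SAH 7d-5). At an unadjusted p under 0.05 edgeR had 2842 genes, and Hmox1, Blvra, Hp and Cd163 were among them. Limma called 0 of the 8 genes, and DESeq2 called 0 of the other 6, giving no adjusted p for Hmox1 or Hp. Every SAH 7d library was above every sham library for Hmox1, as for 0.797% of all tested genes, and this held without SAH 7d-5, against 0.873%. The lowest SAH 7d library had 4.61 FPKM and the highest sham library 4.09 FPKM, so the gap was narrow. The log2 fold change of Hmox1 was 3.08 (SE 0.88, edgeR adjusted p = 0.214), and 1.06 (SE 0.23, edgeR adjusted p = 0.118) without SAH 7d-5, so that 1 library took an 8.47-fold difference to a 2.09-fold one.

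The Hmox1 share of heme oxygenase FPKM passed its test in this comparison. It was 7.18% to 79.0% at SAH 7d (median 11.2%), with a mean 17.0 points above sham (exact permutation p = 0.00649, adjusted p = 0.0195). Without SAH 7d-5 the highest was 20.4% and the difference was 5.87 points (adjusted p = 0.0260 by the same exact permutation test). The Blvrb share differed by -5.60 points at SAH 7d against sham, at 40.7% ± 5.33 (SD, n = 6) against 46.3% ± 3.54 (SD, n = 6), which did not pass after adjustment (exact permutation p = 0.0476, adjusted p = 0.0714).

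SAH 7d-5 set most of the other SAH 7d values. For Hp it had 490 counts against 29 in the next library of its group, or 12.3 against 0.72 FPKM. The log2 fold change of Hp against sham was 2.10 with it (SE 0.90, edgeR adjusted p = 0.301) and -0.056 without it (SE 0.32, edgeR adjusted p = 0.961). Lrp1 stood at 50.2 FPKM in that library against at most 29.6 FPKM in all others, Blvra at 36.5 FPKM and Cd163 at 3.47 FPKM, while Hmox2 was at its lowest of all libraries, 39.6 FPKM. Meningeal fibroblast markers summed to 3893 CPM there, the next SAH 7d library having 323 CPM. The neutrophil list summed to 131 CPM, but Mmp8, a collagenase, gave 130 CPM of it, while S100a9 and S100a8, which define neutrophils, were at 0.69 and 0.21 CPM, where sham-4 had 1.48 and 0.19 CPM. Their part in these levels was not tested. For Cd163 the log2 fold change against sham was 1.13 (SE 0.38, edgeR adjusted p = 0.236) with all libraries and 0.68 (SE 0.26, edgeR adjusted p = 0.285) without SAH 7d-5.

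Genes around the route were taken from lists by role. Of 8 regulators of Hmox1, 3 rose at SAH 1d and none fell. Maff, a small MAF partner of NRF2 and BACH1, rose by 4.34 (SE 0.61, edgeR adjusted p = 0.000505), from a mean of 0.661 to 13.4 CPM. Mafk, another small MAF, rose by 0.99 (edgeR adjusted p = 0.00632) and Nfe2l2, which encodes NRF2, by 0.86 (edgeR adjusted p = 0.00777). Bach1, the heme-sensing repressor of Hmox1, was at 0.52 (edgeR adjusted p = 0.170), and Keap1, which holds NRF2 back, at -0.034 (edgeR adjusted p = 0.862). Maff fell again at SAH 7d against SAH 1d, with a log2 fold change of -3.23 (SE 0.65, edgeR adjusted p = 0.0312), and was the 1 regulator of 8 called there. Without SAH 7d-5 and SAH 1d-3 it was at -2.60 (edgeR adjusted p = 0.00215), and Mafk was called as well, at -0.48 (edgeR adjusted p = 0.0267).

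Of 7 other NRF2 targets tested, 5 rose at SAH 1d and none fell, with a list median of 0.44 against 0.0086 over all genes. Osgin1, a growth inhibitor induced by oxidative stress, rose by 2.73 (edgeR adjusted p = 0.000614), Txnrd1, thioredoxin reductase, by 0.69 (edgeR adjusted p = 0.0169) and Nqo1, a quinone reductase, by 0.61 (edgeR adjusted p = 0.0436). Without SAH 1d-3, 4 of the 7 were called, Nqo1 not among them. None was called by edgeR at SAH 7d against SAH 1d with all libraries, with 3 at an unadjusted p under 0.05 and 0 called by DESeq2 or limma, and 3 of 7 were called lower without SAH 7d-5 and SAH 1d-3.

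The supply of heme was followed through its synthesis and transport. Of 9 genes of heme synthesis 1 was called at SAH 1d, Fech, which inserts the iron, at -0.31 on the log2 scale (edgeR adjusted p = 0.0226). That count of 1 in 9 is near the 10.5% of all tested genes called lower, and without SAH 1d-3 Alad was called too, at -0.25 (edgeR adjusted p = 0.0258). Alas1, the rate-limiting step outside the red cell line, was at 0.0034 (SE 0.096, edgeR adjusted p = 0.983). None of 8 heme transport and binding genes was called by edgeR, with 0 at an unadjusted p under 0.05 and 0 called by DESeq2 or limma. Slc48a1, which moves heme out of lysosomes, was at -0.019 and Flvcr1, a heme exporter, at 0.11.

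Iron released by heme oxygenase is stored in ferritin or exported. Of 9 rows for 8 iron genes, since Slc40a1 has a pair of identifiers, 2 were called higher at SAH 1d and none lower. Over all tested genes 14.9% were called higher and 10.5% lower, so nothing is read from that count. Without SAH 1d-3, Slc40a1, the iron exporter, was called lower by 1 of its rows, at -0.47 (edgeR adjusted p = 0.0382). In that fit 13% of all tested genes were called lower. Cp, the ferroxidase that loads iron for export, rose by 2.38 (SE 0.34, edgeR adjusted p = 0.000580), from 18.2 to 94.5 CPM. Ftl1, the ferritin light chain, rose by 0.64 (edgeR adjusted p = 0.0261), and as ferritin genes have near-identical copies its counts are uncertain. Fth1, the heavy chain, was at 0.22 (edgeR adjusted p = 0.328).

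Relatives of the receptors were set beside Cd163 and Lrp1. Of 5 tested macrophage scavenger receptors, Msr1 rose by 4.34 (edgeR adjusted p = 0.000493) and Olr1 by 4.15 (edgeR adjusted p = 0.000363) at SAH 1d, beside 1.23 for Cd163. Of 8 tested genes of the LDL receptor family, Lrp5 was called higher, at 0.52 (edgeR adjusted p = 0.0101), a count near the 14.9% of all tested genes. None was called lower with all libraries, whereas without SAH 1d-3 Vldlr (-0.30, edgeR adjusted p = 0.00430) and Lrp8 (-0.28, edgeR adjusted p = 0.00637) were. Of 12 acute phase plasma proteins, which like Hp and Hpx are made mostly by liver, 3 could be tested. A2m rose by 2.61 (edgeR adjusted p = 3.43e-05), Serpina1 was at -0.86 (edgeR adjusted p = 0.0476) and Alb at -0.69 (edgeR adjusted p = 0.181). The Serpina1 call was lost without SAH 1d-3 (-0.89, edgeR adjusted p = 0.0544), and limma on FPKM called 1 of the 3 genes with its filter on low values and 3 with no filter.

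**Figure D4:**
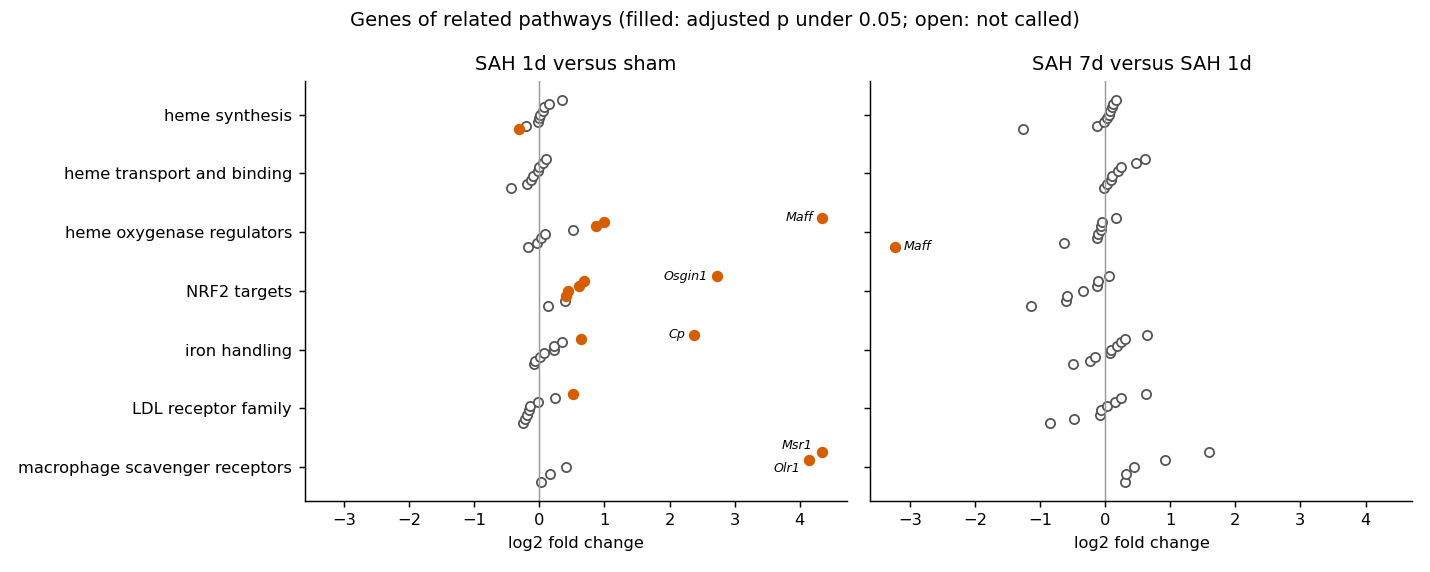
Log2 fold change of each tested gene in 7 lists around the route, for SAH 1d versus sham and SAH 7d versus SAH 1d; filled points have an edgeR adjusted p under 0.05. At SAH 1d the filled points farthest from 0 were Maff (4.34), Msr1 (4.34), Olr1 (4.15), Osgin1 (2.73) and Cp (2.38), and Maff at -3.23 was the filled point at SAH 7d versus SAH 1d.

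Likeness of pattern was described by Spearman's rho of log2 CPM over the 18 libraries, which share the 3 groups and the libraries that stood apart. Among the 8 genes the highest rho was between Hmox1 and Cd163 (0.91) and the lowest between Hmox1 and Hmox2 (-0.80). Hmox1 and Hpx had a rho of 0.69. Blvra and Lrp1 had no rho above 0.43 with any other of the 8.

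Of all named genes, those most like Hmox1 were Ch25h, which makes 25-hydroxycholesterol (rho 0.98), Plin2, a lipid droplet coat protein (0.97), and Anks1a (0.97). Median Ch25h was 2.89 CPM in sham, 17.9 CPM at SAH 1d and 6.62 CPM at SAH 7d. Hmox2 was most like Spock1 (0.97), Meltf (0.96) and Pnkd (0.96). Hpx was most like Mthfd2, a mitochondrial folate enzyme (0.92), LOC299282 (0.91) and Dusp16 (0.90). LOC299282 went from a median of 0.133 CPM in sham to 50.9 CPM at SAH 1d and 0.135 CPM at SAH 7d.

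Cd163 was most like Snai1 (0.96), RGD1559482 (0.94) and Cp (0.94), the ferroxidase described above. The rest reached lower values. Hp was most like Fcnb, a ficolin of myeloid cells (0.85), Cstf1 (0.80) and Retreg3 (0.80). Blvrb was closest to Thap4 (0.84), Ethe1 (0.83) and Tada1 (0.82), Blvra to Rpl7a (0.80), Mrpl13 (0.79) and Zpbp2 (0.76), and Lrp1 to Adcy6 (0.78), Cyb5d1 (0.77) and LOC100911196 (0.75).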

How the data were processed

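RNA sequencing of 18 rat cortex libraries was used, 6 per group. The authors deposited raw whole-number counts for each gene, obtained from reads aligned to Rnor_6.0. They also deposited FPKM values for the same genes and libraries. The submitters' processing notes name fastp, HISAT2 and DESeq2 1.16.1, and list a mouse build that does not match the rat identifiers of the files. Whether a pair of reads gave 1 count, and whether counting used the strand, was not stated, and errors therefore rest on the variation among rats. Groups and library numbers come from the deposited descriptions, which equal the column names. Nothing says that equal numbers mark related rats.

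Genes were kept by filterByExpr over all 18 libraries, normalized by TMM and tested, 12 libraries at a time, with the two-sided quasi-likelihood F test of edgeR 4.0.16 in R 4.3.3. Standard errors are the log2 fold change divided by the root of F. Shares were compared by exact permutation (scipy 1.17.1; Python 3.11.15), with adjustment over 6 tests. Summed levels of marker lists are in CPM. Alternatives were DESeq2 1.42.0 size factors and Wald test, limma 3.58.1 with a trend on log2(FPKM + 1) and log2(FPKM + 0.1) with the mean FPKM at 0.5 or above or with no filter, no filter on counts, at least 10 counts in every library, all 18 libraries in 1 fit, CPM in place of FPKM for the shares, the replicate number as a block, each library left out, and SAH 7d-5 with SAH 1d-3 left out. The fits were tested on simulated data.

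The 8 genes, the pathway and marker lists and the alternatives were chosen with earlier results of these data known. Named genes are the 8 genes, for each the 3 genes with a symbol of highest Spearman's rho, and per pathway list up to 3 genes of largest change among those called at SAH 1d. Other list genes named with values (Bach1, Keap1, Alas1, Slc48a1, Flvcr1, Fth1, Alb, Slc40a1, Alad, Vldlr, Lrp8 and marker genes) were chosen after their values were seen. Promoter sequences are from RefSeq, GRCr8.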

Additional observations from a re-analysis of the deposited data

Results flagged for a closer look

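For 8 of 24 sets of 6 libraries, 1 per gene and group, the highest CPM value lay farther from the rest than Dixon's rule allows, which chance does for about 1 in 20 groups. All 8 values belong to SAH 1d-3 or SAH 7d-5. In SAH 1d-3 they were Hmox1 (379 CPM), Hp (4.99 CPM) and Hpx (5.34 CPM). In SAH 7d-5 they were Hmox1 (238 CPM), Blvra (41.3 CPM), Hp (14.8 CPM), Cd163 (12.96 CPM) and Lrp1 (753 CPM). Hmox2 and Blvrb had no such value in any group.

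The effect at SAH 7d differed from that at SAH 1d for Hpx, with a log2 fold change of -3.70 between the times (edgeR adjusted p = 0.0381), and for the Hmox1 share of heme oxygenase FPKM, with a difference of -34.3 percentage points (exact permutation, adjusted p = 0.0390). Neither call held when any 1 library other than SAH 7d-5 was left out. Hpx also passed the filter on low counts through its SAH 1d libraries. Both tests share the SAH 1d libraries with the comparison against sham.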

How the results depend on the processing

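At SAH 1d the same number of genes of the route, 4 of 8, was called with each of the 12 libraries left out, and Hmox1, Hpx and Cd163 kept direction and call under all alternatives in which they were tested (10 counts in every library removes Hpx). The count of all called genes was 2462 with all 18 libraries in 1 fit. For SAH 7d versus SAH 1d, called genes were 1012 by DESeq2, 406, 403 and 474 by the 3 limma fits, 779 with all 18 libraries, 29 with the replicate block, 2512 without SAH 7d-5 and SAH 1d-3, and 102 to 1545 with 1 library left out. Called genes of the route there were 0 with no filter, with 10 counts in every library (which removes Hpx) and with the replicate block, 3 without SAH 7d-5 and SAH 1d-3, and 0 to 3 with 1 library left out. For SAH 7d versus sham, 459 genes were called by DESeq2, 1 by limma with no filter, 9 with all 18 libraries and 0 to 3 with 1 left out. DESeq2 gave no adjusted p for Hmox1 or Hp in the comparisons with SAH 7d. The causes were not tested.

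Reversed log2 fold changes, none called, were for SAH 7d versus SAH 1d Hp (-0.11 by limma with a pseudocount of 0.1, -0.30 with the block, -0.45 without SAH 7d-5 and SAH 1d-3, range -1.26 to 1.73 over libraries left out, lowest without SAH 7d-5), Lrp1 (-0.069 without SAH 7d-5 and SAH 1d-3, -0.043 without SAH 7d-5, highest 0.24) and Cd163 (0.0017 and 0.048 without SAH 7d-4 or SAH 7d-6, lowest -0.57). For SAH 7d versus sham they were Hp (-0.056 without SAH 7d-5, highest 2.34), Hpx (-0.018 by limma with a pseudocount of 0.1, -0.13 with the block, -0.62 without SAH 7d-5, -0.051 without sham-3, highest 0.45) and Blvrb (-0.0095 without sham-6, highest 0.077). The Blvrb share at SAH 1d against sham was -2.04 points without SAH 1d-3, with a range of -2.04 to 2.56 over libraries left out. At SAH 7d against sham its range was -6.77 to -3.72. The Hmox1 share of SAH 7d against SAH 1d ranged from -45.4 to -29.0 points.

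Deviations of same-numbered libraries from their group means had correlations from -0.37 to 0.36. Such values cannot exclude a shared batch, and no label describes these libraries as pairs. Over such pairs the sign-flip permutation test of the Hmox1 share, whose smallest p is 0.0312, left no call, at adjusted p of 0.0938 for 51.3 points, 0.125 for -34.3 points and 0.0938 for 17.0 points. In the edgeR fits the block called 3979 genes for SAH 1d versus sham and 0 for SAH 7d versus sham. Low counts limit Hp and Hpx.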
